A study of Arabidopsis thaliana with 16 samples.

Results

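The 2 arrays of siliques were compared with the 2 arrays of ovules, 4 of the 16 arrays of a series that profiled root hairs and pollen beside 6 tissues of Arabidopsis thaliana. Both sample types were chosen by their labels alone, so no measured value decided which arrays entered, and 22746 of the 22810 probe sets of the ATH1 array were tested, all but the 64 controls. Siliques are the fruits with the growing seeds inside; they were taken 2 weeks after bolting from plants of the ecotype Columbia and come from an earlier study that also supplied the leaves, seedlings, flowers and pollen. Ovules of the same ecotype were dissected from unpollinated pistils and come from another study, which also supplied the whole unpollinated pistils. The 2 arrays of each type are labelled as biological replicates; the labels give no mutation, transgene or treatment for either type, and no age of the plants, stage of the seeds, number of plants or time of day of the harvest.

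An ovule is the young seed before fertilization. Inside its integuments lies the embryo sac with the egg cell, the central cell and the synergid cells that guide the pollen tube. After fertilization the egg cell gives rise to the embryo, the central cell to the endosperm that feeds it, and the integuments become the seed coat with its tannins and mucilage. The carpels around the seeds grow into the green valves of the silique. A silique sample therefore holds fruit wall and seeds together, whereas an ovule sample holds neither fruit wall nor embryo, and in such bulk samples fewer cells of a type and less RNA per cell cannot be told apart.

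Differences are given as log2 of the intensity in siliques minus that in ovules, after adding a pseudocount of 71.8 to each intensity, which shrinks the differences of dim probe sets. At an adjusted p under 0.05 from limma, with p adjusted by the Benjamini-Hochberg method over all probe sets tested, 6095 probe sets (26.8%) were higher and 6288 (27.6%) lower in siliques, together 54.4%. Of these, 2060 (9.06%) were at least 2-fold higher and 1068 (4.7%) at least 2-fold lower, and 64 were at least 16-fold higher and 19 at least 16-fold lower. The median difference over all probe sets was -0.0026, and 90% of them lay between -0.97 and 1.57. Values in brackets after a call and medians of lists are log2 differences too. An intensity above 215.4, 3 times the pseudocount, is called here the level of detection. In siliques 54.3% and 52.8% of probe sets exceeded it, and in ovules 51.6% and 51.5%. At 2 times the pseudocount the shares were 65.3% and 62.8% in siliques, and 61.2% and 61.1% in ovules. The level was chosen here, and the authors' Present calls, another measure, gave higher shares for both types. A gene below it may therefore still be expressed.

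**Figure D1:**
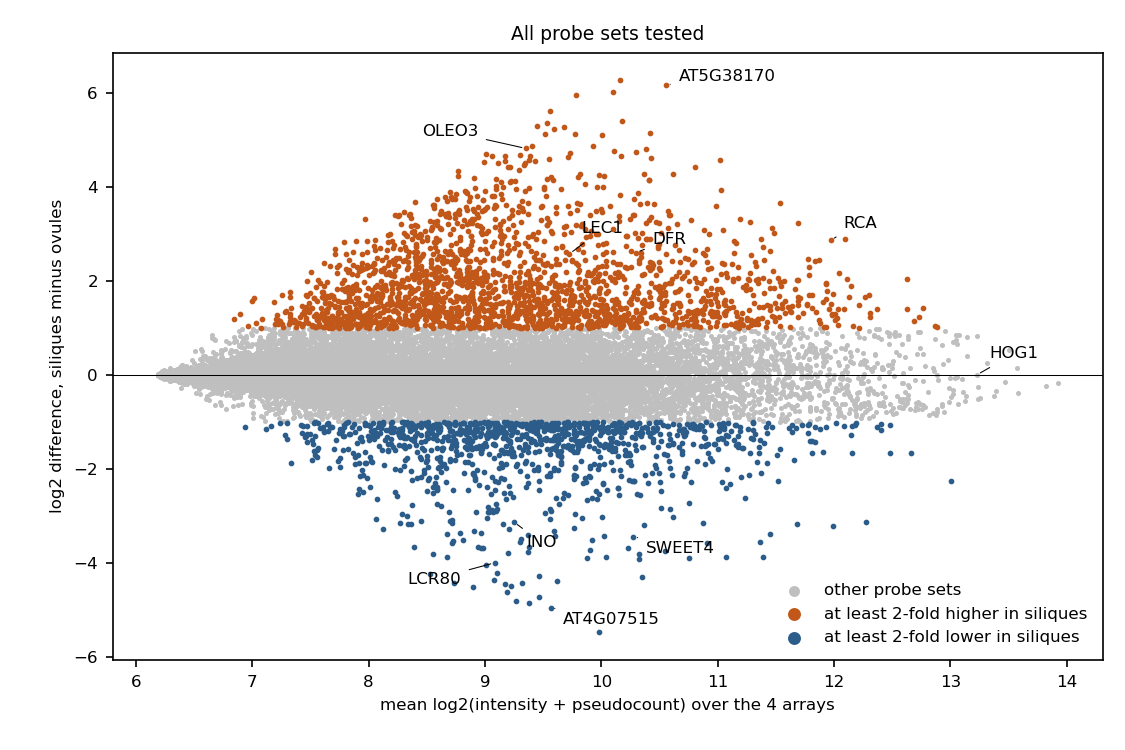
Each point is 1 of the 22746 probe sets, with its mean log2(intensity + pseudocount) over the 4 arrays on the x axis and its log2 difference, siliques minus ovules, on the y axis. The 2060 probe sets at least 2-fold higher in siliques reach a difference of 6.28, and the 1068 at least 2-fold lower reach -5.48.

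Siliques and ovules were never measured within 1 study, so tissue and study cannot be told apart for any difference given here. The replicates were close, with a Pearson correlation across probe sets of 0.996 between the 2 silique arrays and 0.993 between the 2 ovule arrays, against 0.833 between the means of siliques and ovules. All 8 arrays of siliques, leaves, seedlings and flowers lay above all 4 arrays of ovules and pistils for 599 of the 2060 probe sets at least 2-fold higher in siliques (29.1%), and below them for 573 of the 1068 at least 2-fold lower (53.7%), against 5.9% and 7.56% of all probe sets. The silique and ovule arrays that chose these probe sets are among the arrays compared. These shares are therefore partly fixed by that choice and are a description. The control transcript CreX, added at hybridization, had intensities of 6325 and 6268 on the silique arrays, against 11091 and 10385 on the ovule arrays, and 6909 and 7857 on the pistil arrays of the ovule study. The log2 ratio of the 3' to the 5' probe set of GAPDH, a sign of RNA length, was 0.39 and 0.45 in siliques, against 0.65 and 0.65 in ovules, and 0.36 and 0.77 in pistils. A few genes tied to the circadian clock were looked at after their values were seen and come from no list. LHY, a morning factor of the clock, was at 742 and 740.4 in siliques, against 125 and 122 in ovules, and at 128 in pistils and 1904 in leaves; GI, an evening gene, was at 485 and 505 in siliques, against 1250.5 and 1276 in ovules, and at 1198 in pistils. COR27, a cold-induced gene under clock control, was at 53.1 and 68.6 in siliques, against 1624 and 1284 in ovules, and stood at 1189 in pistils but at 31.2 in flowers. LCL1, another factor of the LHY family, differed less, with 825 and 761 in siliques, against 552 and 535 in ovules (log2 difference 0.49), and stood at 602 in pistils. The part of the study, of labelling and of the time of harvest in the differences below was not tested.

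Adjacent genes of the lipid transfer and 2S albumin superfamily differed most among the named genes. AT5G38160 had intensities of 10253 and 9822 in siliques, against 58 and 58.5 in ovules, a log2 difference of 6.28 (SE 0.072, adjusted p = 1.5e-16 from limma). AT5G38170, the next gene of the annotation, had 12902 and 12579.7 in siliques, against 104 and 107 in ovules. A neighbour on the other side, AT5G38180 of the same superfamily, which lies outside the 15 largest differences, was higher by 4.37 (log2), so that 3 genes in a row were bright in siliques and below the level of detection in ovules, pistils, flowers, leaves and seedlings.

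The other genes among the 15 largest increases have varied roles. ATPMEPCRD, a pectin methylesterase, which trims the methyl groups of wall pectin, had 7427 and 7519 in siliques, against 129 and 85.8 in ovules, and a further pectin methylesterase, AT1G23200, had 5025 and 5407 in siliques, against 114 and 103 in ovules. JMT, the enzyme that methylates jasmonic acid, had 5179 and 4921 in siliques, against 58.5 and 60.0 in ovules, but was also bright in flowers (3264) and pollen (3683). OLEO3, an oleosin that coats the oil bodies of seeds, had 3405 and 3406 in siliques, against 50.9 and 50.9 in ovules. The arrays of both types did not overlap for any of the 15, by the rule that chose them. AT5G59845, a gibberellin-regulated peptide, AT1G19320, a thaumatin-like protein, AT4G15390, an acyltransferase, AT1G22480, a plastocyanin-like protein, and the glycine-rich proteins AT1G04660 and AT3G24250 had log2 differences of 4.76, 4.70, 4.68, 4.58, 4.66 and 4.61. AT3G28270 and ECS1 had log2 differences of 5.13 and 5.12, and were at least as bright in leaves, with means of 4491 and 14009, as in siliques, with means of 4263 and 5082. The remaining gene, AT1G62070, was the least even between the silique arrays, with 2137 and 3204, against 35.2 and 34 in ovules.

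**Figure D2:**
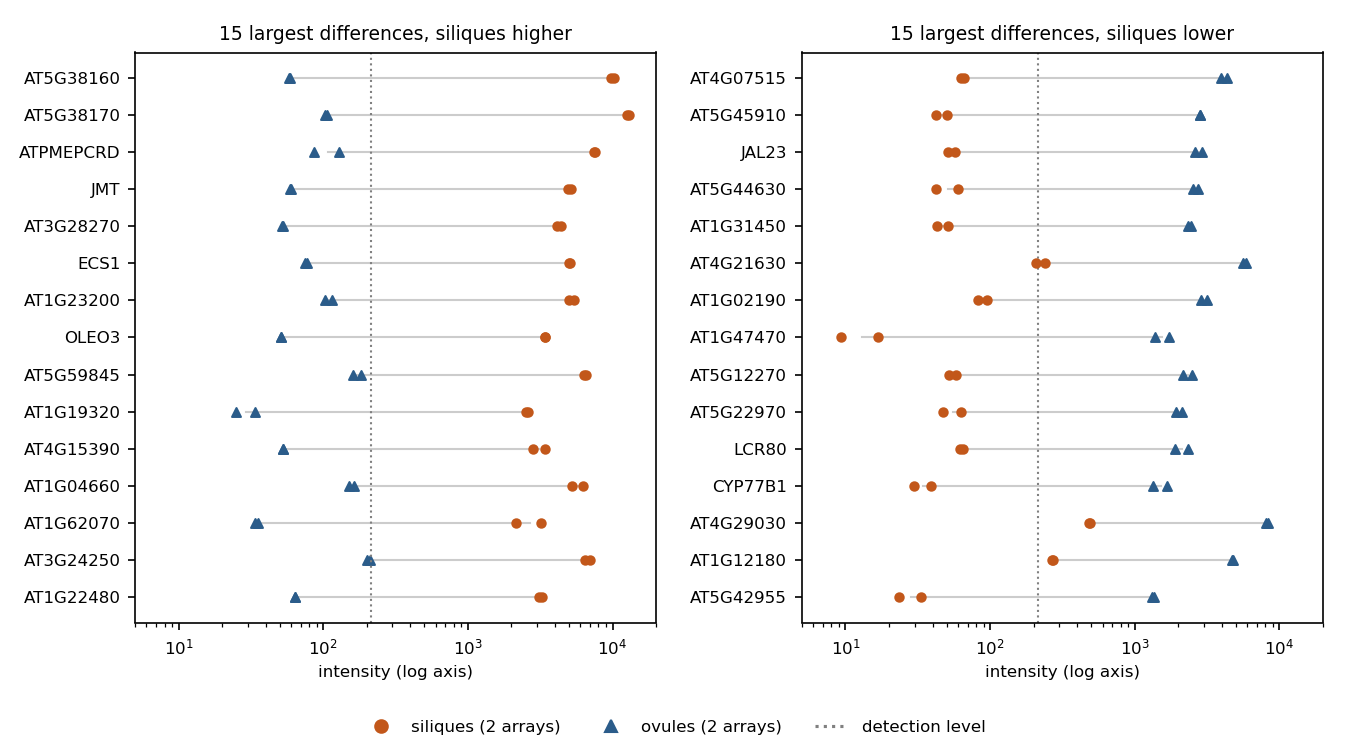
Intensity on a log axis of the 15 named genes at either end of the log2 differences, with circles for the 2 silique arrays, triangles for the 2 ovule arrays and a dotted line at the level of detection, 215.4. On the left the lowest silique array is at 2137 and the highest ovule array at 212; on the right the lowest ovule array is at 1310.0, and only AT4G21630, AT4G29030 and AT1G12180 have a silique array above the dotted line.

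Among the 15 genes that were furthest below ovules, AT4G07515 led with 62.6 and 65.6 in siliques, against 3965 and 4341 in ovules, a log2 difference of -4.96 (SE 0.09, adjusted p = 3.2e-15 from limma). Enzymes make up much of this group. AT5G45910, a GDSL lipase, had 50.1 and 42.3 in siliques, against 2807 and 2825 in ovules; AT1G31450, an aspartyl protease, had 51.2 and 43.2, against 2442 and 2319; and AT4G21630, a subtilase, had 241 and 206, against 5891 and 5563. All 3 encode hydrolases, and all 3 were dimmer in pistils than in ovules, at 531, 536 and 1146. AT5G44630, a sesquiterpene synthase, had a log2 difference of -4.46 and was brighter in flowers (4159) than in ovules (2628), and JAL23, a jacalin-type lectin, had a log2 difference of -4.49 and was as bright in pistils (2665) as in ovules (2766). AT5G12270, a dioxygenase, CYP77B1, a cytochrome P450, and AT1G02190, a relative of the wax gene CER1, had log2 differences of -4.23, -3.89 and -4.27. AT1G02190 and CER1 are neighbours in the annotation and went opposite ways, since CER1 was higher by 2.49 (log2) in siliques. The embryo sac genes AT1G47470 and LCR80 are described below, and AT5G22970, AT4G29030, AT1G12180 and AT5G42955 had log2 differences of -4.05, -3.89, -3.82 and -3.81.

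Names were lacking for many of the strongest responders: 52 of the 100 probe sets with the largest increases and 39 of the 100 with the largest decreases have no gene named in the tables used here, against 6642 of all 22746. The means of the other tissues did not enter the difference itself, although their arrays contributed to its error. For 895 of the 2060 probe sets at least 2-fold higher (43.4%) the leaves were at or above the siliques, which is near the 46.3% of all probe sets. For 279 (13.5%) the mean was above the level of detection in siliques and below it in ovules, pistils, flowers, leaves and seedlings, against 2.03% of all probe sets. AT5G38170, AT5G38160, OLEO3 and AT1G22480 were the brightest named genes of the 279, followed by AO4, an aldehyde oxidase of siliques, at 2837 and 3026 in siliques, against 196 and 184 in ovules. In the opposite direction, 250 of the 1068 at least 2-fold lower (23.4%) were above the level of detection in ovules and below it in siliques, leaves and seedlings, against 3.6% of all probe sets. Unpollinated pistils, which contain ovules, lay between siliques and ovules for 866 of the 1068 (81.1%) and for 1355 of the 2060 (65.8%), against 39.3% of all probe sets. Since the comparison itself used the silique and ovule arrays, these shares are a description.

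Lists of genes known from the seed, the fruit, the ovule and other cell types held 726 genes in 24 lists, of which 225 had a probe set here. Markers of both tissues that could be checked were few: ALC and LEC1 of 11 for fruit and seed, and INO, STK and EC1.2 of 8 for ovules. All but ALC were higher in the tissue they mark, and ALC was lower in siliques (log2 difference -0.64). Across the lists 108 genes were higher and 51 lower in siliques. The lists with the highest medians were those for lignin and secondary walls, oil bodies, and photosynthesis, and the lowest medians belonged to embryo sac cells and to cell division and DNA replication. The counts of each list are to be read against 26.8% higher and 27.6% lower of all probe sets and the median of -0.0026.

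**Figure D3:**
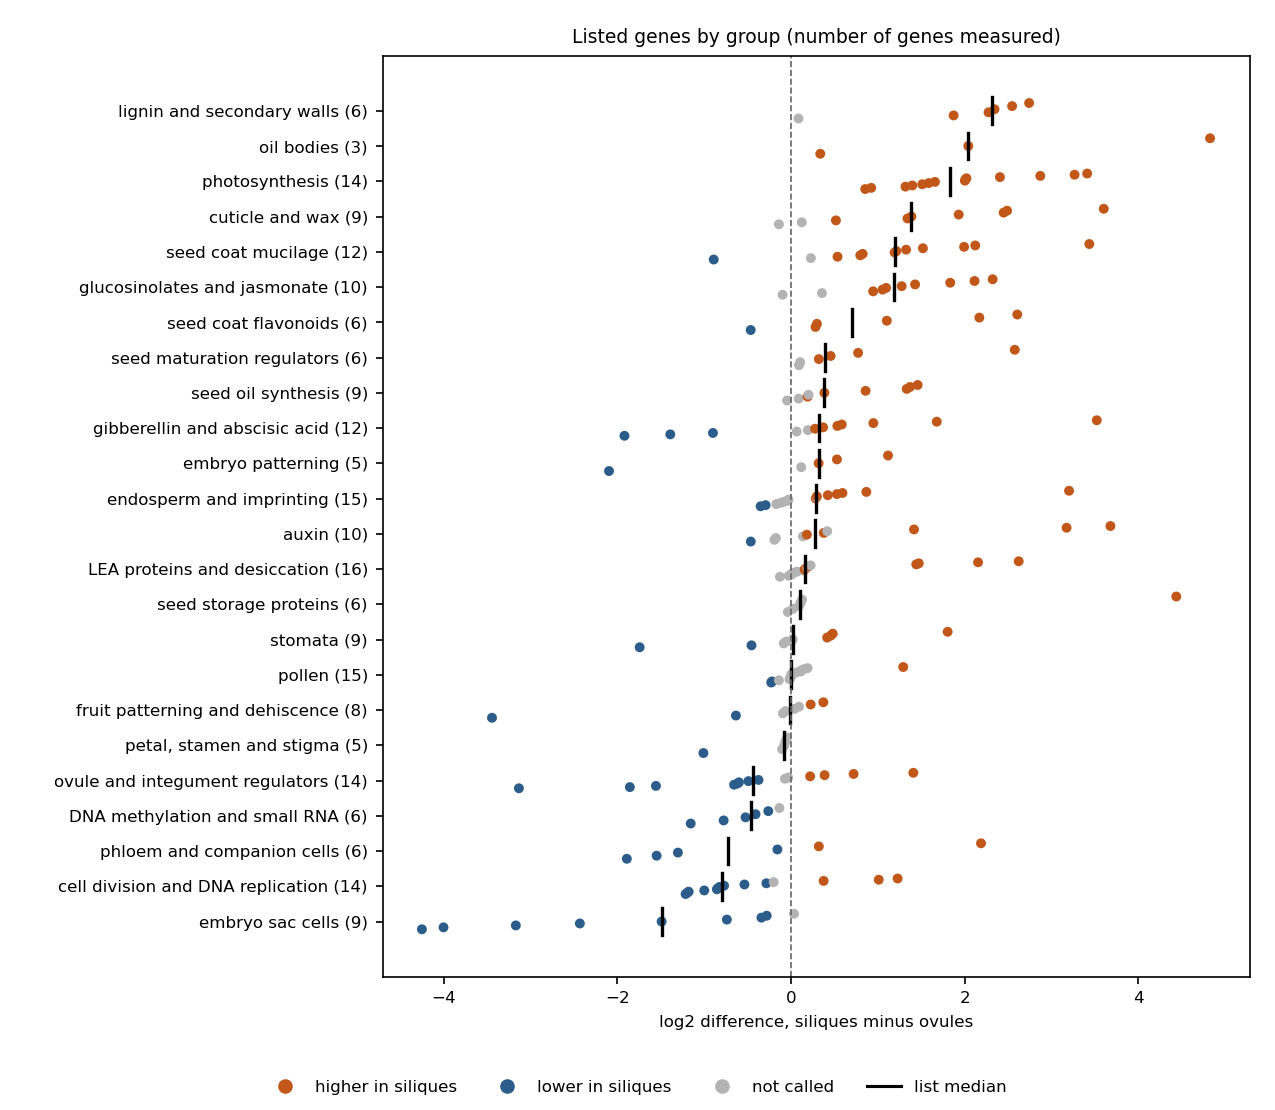
Log2 difference, siliques minus ovules, of each listed gene measured, 1 point per gene, by list in order of the list median (black bar), with the number of genes measured in brackets. Medians run from 2.31 for lignin and secondary walls to -1.49 for embryo sac cells; the dashed line is the median of all probe sets, -0.0026.

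Transcripts of oleosins were higher in siliques, but only 1 of the 6 storage genes measured was. That list names 14 genes, and the 6 include BETA-TIP, a water channel of the storage vacuole. The reserves themselves were not measured. AT4G36700, a vicilin-like storage protein, had 2744 and 2651 in siliques, against 57.3 and 55.1 in ovules (log2 difference 4.44, SE 0.066, adjusted p = 6.4e-16 from limma). The other 5 storage genes measured were below the level of detection on all 4 arrays and were not called; CRU2, a 12S globulin, had 26.8 and 44 in siliques, against 28.9 and 23.5 in ovules, and passed only when the first silique array was left out (0.24). PAP85, a vicilin-like protein, had 75.5 and 74.9 in siliques, against 64.9 and 67 in ovules. All 3 oleosins measured were higher, with log2 differences of 4.82 for OLEO3, 2.04 for AT3G01570 and 0.34 for AT3G18570. Only OLEO3 and AT3G01570, which was at 621 and 598 in siliques, against 94 and 93.7 in ovules, were above the level of detection in siliques.

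Of 9 genes of seed oil synthesis, 6 were higher and 0 lower, with a median of 0.38. The plastid steps led: PDH-E1 ALPHA, a subunit of the plastid pyruvate dehydrogenase that makes acetyl-CoA for fatty acids, had 5059 and 5092 in siliques, against 1712 and 1899 in ovules. The thioesterases FaTA and FATB, which release fatty acids from their carrier protein, were higher by 1.37 and 1.33 (log2), and AT5G16240, a stearoyl-ACP desaturase, 0.86 higher (log2). TAG1, the acyltransferase that completes storage oil, was higher by 0.38 (log2), while PDAT, an alternative acyltransferase of that step, had 723 and 742 in siliques, against 662 and 708 in ovules and was not called (adjusted p = 0.43). The means of all 9 were above the level of detection in both sample types.

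Among 16 LEA proteins and other desiccation genes, 7 were higher and 0 lower, with a median of 0.16. The 4 that differed by at least 2-fold were ERD10, COR47 and LTI30, which are dehydrins that also respond to cold and drought, and LEA14. ERD10 had 1613 and 1389 in siliques, against 210.0 and 159 in ovules, but 6121 in flowers and 3864 in leaves. COR47 was likewise brighter in flowers (7066) than in siliques (729). The other 3 calls, LEA18, AT4G21020 and AtLEA4-1, came from probe sets below the level of detection on all 4 arrays, and none of the 3 held without the first ovule array (4 higher). The seed LEA genes M10, M17 and AT2G42560 were below that level on all 4 arrays, with log2 differences of -0.13, 0.0086 and 0.0023.

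LEC1, the NF-YB factor that sets embryo identity and starts seed maturation, differed most of the 6 seed maturation regulators measured. Its intensities were 1931 and 2059 in siliques, against 259 and 291 in ovules (log2 difference 2.58, SE 0.087, adjusted p = 2e-12 from limma). The ovule values of LEC1 lie near those of leaves (239), flowers (206) and pistils (225). Of the 6, 4 were higher and 0 lower, with a median of 0.39. EEL, a bZIP factor of the late embryo, and BBM, an AP2 factor of the embryo, were higher by 0.77 and 0.46 (log2) but stayed below the level of detection, with 135 and 146 for EEL and 111 and 106 for BBM in siliques, against 44 and 61.8 and 64.3 and 55.2 in ovules. BZO2H1, a bZIP partner of seed maturation, was higher by 0.32 (log2), and was not called without the second silique array (0.30) or the second ovule array (0.20). BZIP53, another bZIP factor of maturation genes, was bright and even, with 1664 and 1776 in siliques, against 1498 and 1732 in ovules, and AGL67, a MADS-box factor of the seed, had 104 and 70.5, against 72.7 and 77.9, and passed only without the second silique array (0.26).

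Genes for seed coat tannins were above the level of detection in ovules and mostly higher still in siliques. BAN, the anthocyanidin reductase that makes the building blocks of seed coat tannins, had 5251 and 5619.9 in siliques, against 2334 and 2660.2 in ovules (log2 difference 1.1, SE 0.11, adjusted p = 4.9e-07 from limma), with a mean of at most 271 in pistils, flowers, leaves and seedlings, the 4 other tissues of the series. DFR, the dihydroflavonol reductase of the same pathway, had 2865 and 3204 in siliques, against 403 and 476 in ovules. The ovule arrays of both genes were above the level of detection, and the groups did not overlap. AHA10, the proton pump that loads tannins into the vacuole of seed coat cells, went the other way, with 383 and 400.3 in siliques, against 529 and 608 in ovules (log2 difference -0.47), and at most 78.3 in the 4 other tissues. In all, 5 of the 6 genes of this seed coat list were higher and 1 lower, with a median of 0.70. Besides flavonoid enzymes, the list holds the pump AHA10 and UGT80B1, a sterol glucosyltransferase. UGT78D2, a flavonoid glucosyltransferase, was higher by 2.17 (log2) but brighter still in leaves (2508), while UGT78D1 and UGT80B1 were higher by 0.30 and 0.28 (log2) and both calls were lost without the second silique array (0.24 and 0.25) or the first ovule array (0.098 and 0.20), which leaves 3 higher.

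Mucilage, the pectin that seed coat cells release when wetted, had 10 of 12 genes higher and 1 lower, 7 of them at least 2-fold higher, with a median of 1.2. AT3G50990, the seed coat peroxidase PER36 that loosens the wall over the mucilage, had 1385 and 1143 in siliques, against 52.4 and 50.2 in ovules (log2 difference 3.43, SE 0.081), and at most 63.3 in the 4 other tissues. AT4G28370, the ubiquitin ligase FLY1 of pectin methylation, had 1379.8 and 1249.7 in siliques, against 263 and 231 in ovules, and MUM2, the galactosidase that makes mucilage able to swell, had 614 and 664, against 114 and 100.3. The silique and ovule arrays of all 3 did not overlap. Among genes of synthesis, CESA5, a cellulose synthase, AT2G22900, the galactosyltransferase MUCI10, and GATL5 were higher by 1.52, 1.21 and 0.80 (log2), and the MYB factors MYB52 and MYB61 1.32 and 1.19 higher (log2). ARA12, a subtilase of mucilage release, was the brightest of the list, at 7287 and 7708 in siliques, against 4209.8 and 4194 in ovules. MUM2 and CESA5 were brighter in leaves (1060 and 2187) than in siliques (means of 639 and 1838). CSLA02, a glucomannan synthase that was higher by 0.53 (log2), was as bright in pistils (2096) as in siliques (2077). The other genes called higher were brightest in siliques among the tissues profiled. The trihelix factor AT1G76880, known as DF1, was the 1 gene lower (log2 difference -0.89), and GAUT11 had 233 and 178 in siliques, against 161 and 167 in ovules and passed only without the second silique array (0.37).

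**Figure D4:**
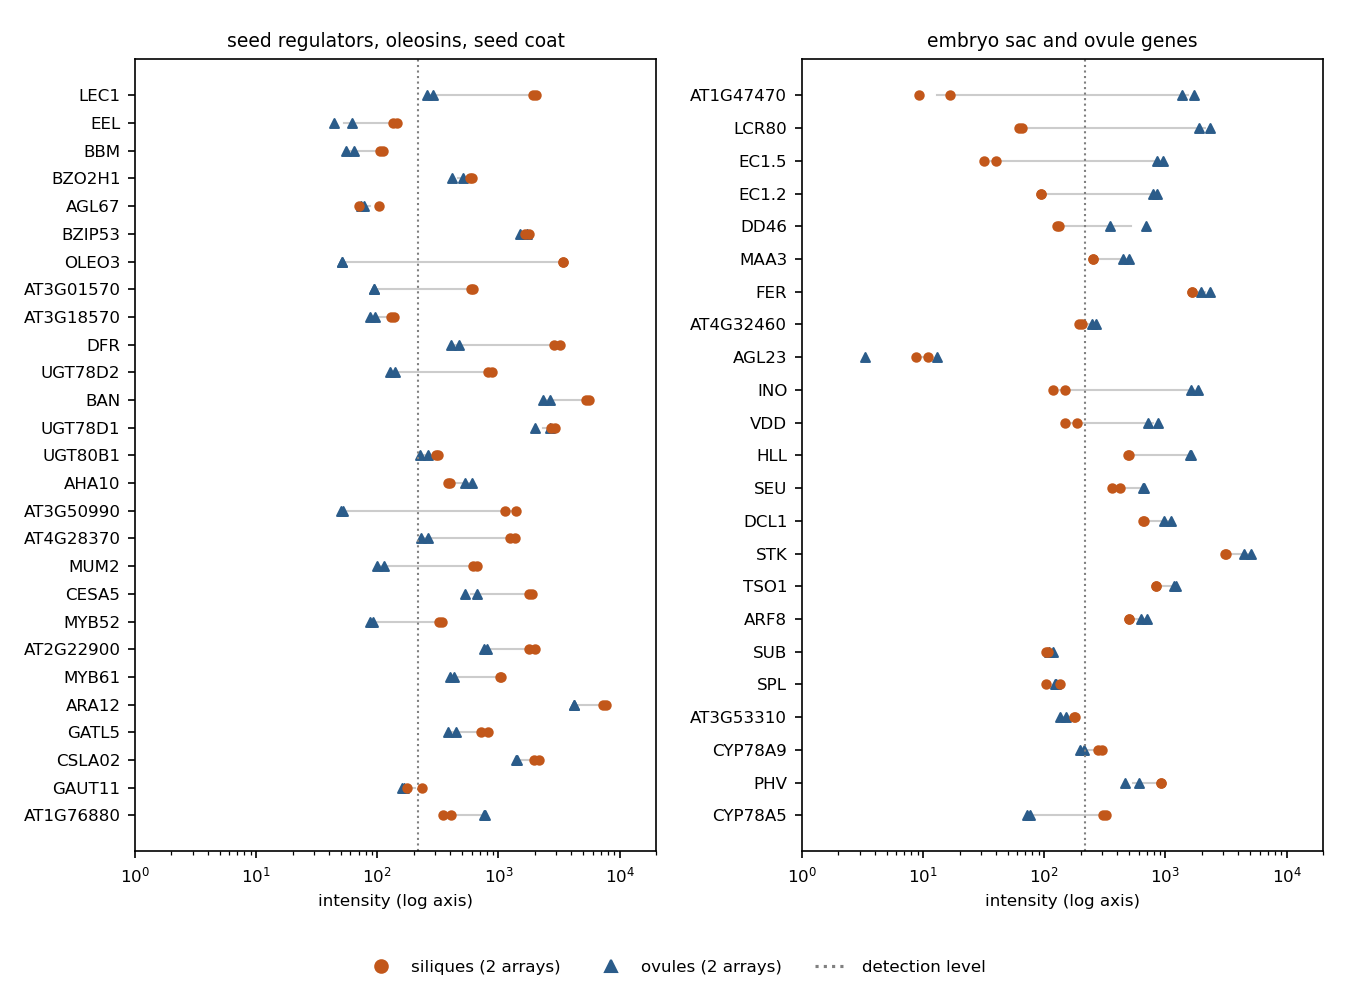
Intensity on a log axis of every measured seed maturation regulator, oleosin and seed coat gene (left) and every measured embryo sac and ovule gene (right), with circles for the 2 silique arrays, triangles for the 2 ovule arrays and a dotted line at the level of detection, 215.4. LEC1, OLEO3, DFR and AT3G50990 stand far to the right in siliques, and AT1G47470, LCR80, EC1.5, EC1.2 and INO far to the right in ovules.

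Endosperm genes were mixed. Of 15 measured, 7 were higher and 2 lower, with a median of 0.28, and 7 were below the level of detection in both sample types. SWEET11, a sugar exporter that feeds the seed, had 1711 and 1819.9 in siliques, against 138 and 119 in ovules (log2 difference 3.20, SE 0.1, adjusted p = 8.1e-13 from limma), and was also bright in leaves (2199.7). SAG29, the seed sugar exporter SWEET15, had 1609.8 and 1558 in siliques, against 1011 and 1147 in ovules. AT4G36590, the MADS-box factor AGL40 of the endosperm, had 276 and 237, against 100.1 and 116, and is the only MADS-box gene of the list with a mean above the level of detection in siliques and below it in ovules. MEA, the imprinted Polycomb gene of central cell and endosperm, was higher by 0.59 (log2), at 442 and 356 in siliques, against 229 and 249.6 in ovules. Its ovule values lie near those of pistils (243) and below those of leaves (316) and seedlings (290). DME, the DNA glycosylase of the central cell that opens maternal alleles such as that of MEA, had a log2 difference of -0.35. Its other probe sets had differences of -0.54, called lower, and 0.064, not called. AGL62, which delays the formation of cell walls in the early endosperm, had -0.29, at 33.2 and 35 in siliques, against 58.5 and 57.4 in ovules. The call of DME was lost without the second silique array (-0.27) or the first ovule array (-0.32), so that 1 gene was lower in either case. Without the first silique array 4 were lower, with AGL80 (-0.22) and IKU1 (-0.27) added. The central cell factors AGL61 and AGL80 were not called, with 337 and 249.8 for AGL61 in siliques, against 306 and 318 in ovules, and 180.4 and 148 for AGL80, against 180.0 and 188. For AGL61, leaves (293) and seedlings (298) were near the ovule values, while AGL80 was at 123 and 144 there. AGL96, AGL91 and TAR1 were higher by 0.42, 0.28 and 0.30 (log2) without reaching the level of detection, and the call of AGL91 was lost without any 1 of the 4 arrays (0.22 to 0.34).

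Only 5 genes of embryo patterning were measured, of which 3 were higher and 1 lower, with a median of 0.32. The median was -0.99 once dim probe sets were left out, which kept only MP (-2.10) and IAA12 (0.12). MP, the auxin response factor that lays down the embryonic root and vasculature, had 586 and 667 in siliques, against 2648 and 3194 in ovules (log2 difference -2.10, SE 0.12, adjusted p = 7.4e-10 from limma), and 1067 in pistils. Its repressor IAA12 was even, with 349 and 372, against 295 and 361. PIN7, an auxin exporter of the embryo and other tissues, was higher by 1.12 (log2), and GSO1, a receptor kinase needed for the embryo cuticle, 0.53 higher (log2), both near the level of detection in siliques (266 and 218). AT5G01075, the peptide TWS1 that signals to GSO1, was higher by 0.32 (log2) and was not called without the second silique (0.29) or second ovule array (0.24).

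Regulators of the ovule itself were lower in siliques for 8 of 14 genes and higher for 4, with a median of -0.43. INO, the YABBY factor without which the outer integument does not form, had 149 and 119 in siliques, against 1614 and 1855 in ovules (log2 difference -3.13, SE 0.10, adjusted p = 1.2e-12 from limma). VDD, a B3 factor of the embryo sac, had 149 and 185 in siliques, against 722 and 868 in ovules, and HLL, a mitochondrial ribosomal protein needed for ovule growth, had 494 and 504, against 1588 and 1626. For INO and VDD the siliques were below the level of detection, as were leaves and seedlings. STK, the MADS-box factor of ovule identity, was bright in both, with 3085 and 3148 in siliques, against 4479.8 and 5062 in ovules (log2 difference -0.60), and 1489 in pistils. The co-repressor SEU, the microRNA enzyme DCL1, the division factor TSO1 and the auxin response factor ARF8, which restrains fruit growth before fertilization, had log2 differences of -0.66, -0.62, -0.49 and -0.37. CYP78A5, known as KLU, a cytochrome P450 of integument and organ growth, was higher, with 326 and 304 in siliques, against 72 and 76.1 in ovules. PHV, an HD-ZIP factor of organ polarity, was higher by 0.72 (log2), and CYP78A9 and AT3G53310, higher by 0.39 and 0.22 (log2), both lost the call without the first silique array (0.43 and 0.21) or the second ovule array (0.43 and 0.16), which leaves 2 higher. SUB, a receptor kinase of integument growth, and SPL, a factor of the nucellus, were below the level of detection and not called.

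Embryo sac genes had the lowest median of the lists, -1.49: 8 of 9 were lower in siliques and 0 higher. AT1G47470, known as DD31 and expressed in the synergid cells, had 16.7 and 9.32 in siliques, against 1377 and 1724 in ovules (log2 difference -4.25, SE 0.13, adjusted p = 6.2e-13 from limma). LCR80, the defensin-like central cell protein DD22, had 62.3 and 65.3 in siliques, against 1897 and 2327 in ovules. Pistils lay in between for both, with means of 419 and 439. EC1.5 and EC1.2, proteins that the egg cell secretes on the arrival of sperm, had 40.2 and 31.9 and 94.4 and 93.7 in siliques, against 954 and 845 and 853 and 794 in ovules. Silique levels of EC1.5 and EC1.2 were near those of leaves (34.8 and 82.8). DD46 was the least even, with 132 and 128 in siliques, against 351 and 691 in ovules (log2 difference -1.49). MAA3, a helicase needed for embryo sac growth, had a log2 difference of -0.74, and FER, the receptor kinase by which synergid cells receive the pollen tube and which acts in many tissues, -0.34. The calls of FER and of the wall protein AT4G32460 (log2 difference -0.28) were lost without the first silique array (-0.34 and -0.31) or the second (-0.35 and -0.25), and AGL23 was below the level of detection. EC1.5 and EC1.2 of the egg cell and LCR80 of the central cell were thus above the level of detection in ovules and below it in siliques.

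Cell division genes were lower for 10 of 14 and higher for 3, with a median of -0.80. AUR3, a mitotic kinase, had 182 and 187 in siliques, against 579.8 and 471 in ovules, and HTR12, the histone of centromeres, had 192 and 215, against 534 and 584. PRL, the helicase subunit MCM7 of DNA replication, had a log2 difference of -1.18, CYCA2;3, a mitotic cyclin, -1.0, and PCNA1, the sliding clamp of replication, -0.85. SYP111, known as KNOLLE, the syntaxin that fuses vesicles into the cell plate, ran against them, with 3139.5 and 3044 in siliques, against 1346 and 1217 in ovules (log2 difference 1.23, SE 0.11). FZR2, known as CCS52A1, an activator of endoreduplication, was higher by 1.01 (log2), at 216 and 226 in siliques, against 68.4 and 79.1 in ovules. AUR2, the third gene higher (log2 difference 0.37), was not called without the second silique array (0.19) or the second ovule array (0.33). HIK, a kinesin of the cell plate, had 351 and 392, against 470.1 and 406, and passed as lower only without the second ovule array (-0.29).

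Of 6 genes of DNA methylation, Polycomb repression and small RNA, 5 were lower and 0 higher, with a median of -0.47. AGO7, the Argonaute of trans-acting small RNA, had 175 and 181 in siliques, against 464 and 506 in ovules. NRPD1B, the largest subunit of RNA polymerase V, which guides RNA-directed DNA methylation, had 397 and 379, against 723 and 709.8, and its other probe set was lower too, with a log2 difference of -0.28. SE and HYL1, which process microRNA, and VRN2, a Polycomb protein, had log2 differences of -0.52, -0.41 and -0.26; the last was not called without the first silique array (-0.26), the second silique array (-0.27) or the second ovule array (-0.23). HYL1, at 67.4 and 58.6 in siliques, against 109 and 105 in ovules, and EMF2, which was not called, were below the level of detection in both.

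Genes of lignified walls were higher in siliques for 5 of 6, all at least 2-fold, with a median of 2.31. GUT2, known as IRX10, which builds the xylan of secondary walls, had 1563 and 1725 in siliques, against 190.0 and 179 in ovules (log2 difference 2.74, SE 0.08, adjusted p = 3.7e-13 from limma). HCT and CCR1, enzymes of monolignol synthesis, had 5622 and 6284 and 2861 and 3089 in siliques, against 1005 and 916 and 602 and 516 in ovules. HCT and CCR1 were bright in leaves too (5479 and 3490.1), whereas GUT2 stayed below the level of detection in leaves, seedlings, flowers and pistils. MYB58, an activator of lignin genes, was higher by 1.87 (log2) and likewise below the level of detection in those 4 tissues. XCP2, a peptidase of xylem vessels, was higher by 2.34 (log2). Its means in pistils (1821) and seedlings (2250) were above that in siliques (1587). The peroxidase AT5G66390 was at 25.5 and 21 in siliques, against 18.3 and 17.3 in ovules.

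Of 8 genes of fruit patterning and dehiscence, 2 were higher and 2 lower, with a median of -0.01. These shares are near the 26.8% higher and 27.6% lower of all probe sets. SWEET4, a sugar transporter placed in this list that does not itself pattern the fruit, had 302 and 305 in siliques, against 3872 and 4167 in ovules (log2 difference -3.44, SE 0.12). ALC, the bHLH factor of the valve margin where the fruit opens, had 727 and 727 in siliques, against 1195 and 1143 in ovules, and its relative SPT, which forms the carpel margin, had 357 and 358, against 387 and 369. SPT was not called, nor was ADPG1, a polygalacturonase of pod opening, with 396 and 412 in siliques, against 404 and 348 in ovules. NGA1 and YAB3, which shape carpels, were higher by 0.37 and 0.23 (log2); YAB3 lost its call without the second silique array (0.18) or either ovule array (0.26 and 0.19), which leaves 1 higher.

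Photosynthesis genes were higher for all 14 measured, 12 of them at least 2-fold, with a median of 1.83. RCA, the activator of Rubisco, had 10885 and 10659.6 in siliques, against 1486 and 1342 in ovules (log2 difference 2.87, SE 0.076, adjusted p = 1.2e-13 from limma). The largest differences belonged to photorespiration: HPR, a peroxisomal reductase, had 4646 and 5214 in siliques, against 405 and 392 in ovules, and GLDP1, a glycine decarboxylase subunit, had 7824 and 7428, against 781 and 681. The Calvin cycle enzymes SBPASE and PRK had log2 differences of 2.02 and 2.00. The 8 genes of the photosystems and their antennae ranged from 0.92 for PSBP-1 of photosystem II to 2.40 for PSAN of photosystem I (log2), and the plastocyanin DRT112 had 0.85 (log2). Leaves were above siliques for all 14, and pistils were above ovules for all 14, with RCA at 17401 in leaves and 7868 in pistils. In ovules too the means of all 14 were above the level of detection, the lowest mean being that of HPR (398).

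Genes of the cuticle, the waxy cover of aerial organs, were higher for 7 of 9 and lower for 0, with a median of 1.39. CER3, which works with CER1 in alkane synthesis, had 7080.1 and 6895 in siliques, against 566 and 459.9 in ovules (log2 difference 3.6, SE 0.11, adjusted p = 4.4e-13 from limma). CER1 had 4165 and 3668 in siliques, against 607 and 671 in ovules, and stood as high in pistils (4153). WSD1, a wax ester synthase, and SHN3, an AP2 factor of the cuticle, were higher by 2.45 and 1.93 (log2), while SHN1 and the cutin enzyme GPAT4 were not called. KCS1, an elongase of wax, was higher by 1.34 (log2) with uneven ovule arrays (1391 and 2624). Among 9 stomatal genes, 4 were higher and 2 lower, with a median of 0.02, which turned to -0.063 under quantile normalization, -0.020 under 75th percentile scaling, -0.090 without the first silique array and -0.0015 without the first ovule array. MYB60, a guard cell factor, had 399 and 364 in siliques, against 57.6 and 58.2 in ovules, and STOMAGEN, the peptide of inner tissue that promotes stomata, had 36.9 and 25.6, against 295 and 252. The early factors SPCH and MUTE were below the level of detection on all 4 arrays.

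**Figure D5:**
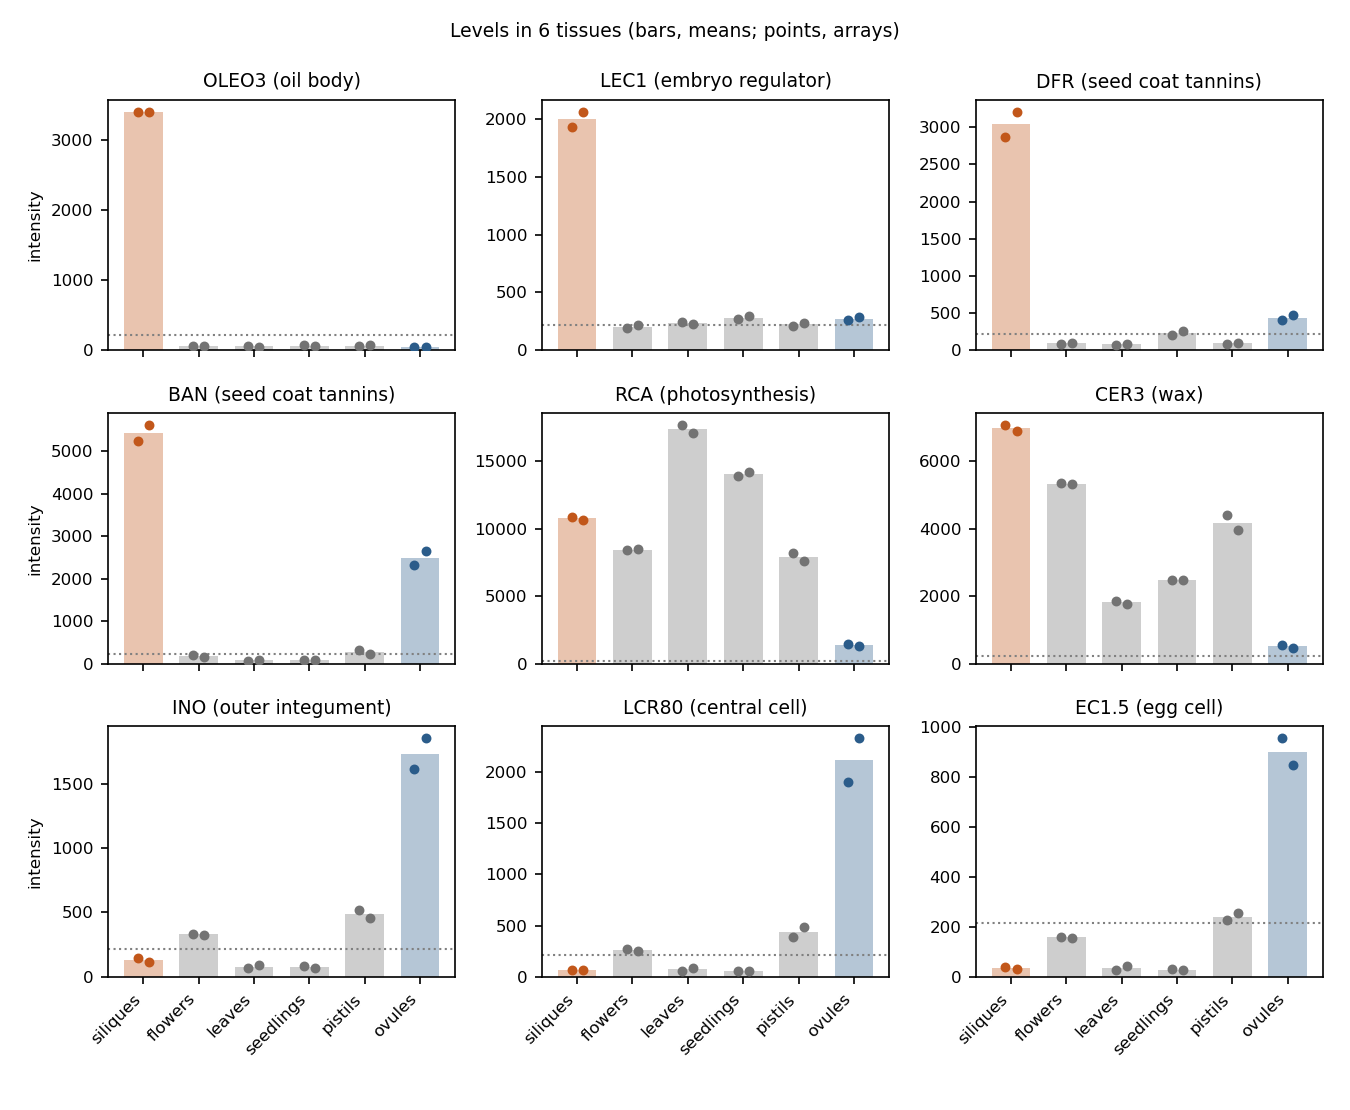
Intensity of 9 genes in siliques, flowers, leaves, seedlings, unpollinated pistils and ovules, with bars for the mean, points for the 2 arrays of each tissue and a dotted line at the level of detection, 215.4. OLEO3 and LEC1 stand out in siliques alone, BAN in siliques and ovules, RCA in every tissue but least in ovules, and INO, LCR80 and EC1.5 in ovules, with less in pistils.

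Glucosinolates are the mustard oil precursors that Brassicaceae store in fruits and seeds. In the list that joins them with jasmonate, a hormone of defence and fertility, 8 of 10 genes were higher and 0 lower, with a median of 1.18. AOP3, which modifies the side chain of glucosinolates, had 1321 and 1359 in siliques, against 228 and 195 in ovules, and at most 297 in the 4 other tissues. BCAT4, which opens the methionine route, had 574 and 679 in siliques, against 72.9 and 107 in ovules, but 4788 in leaves and 3622 in pistils. The transporters GTR1 and GTR2, which carry glucosinolates to seeds, were higher by 1.83 and 0.94 (log2), and the synthesis enzymes UGT74B1, CYP79F1 and SOT17 1.43, 1.09 and 1.05 higher (log2). LOX3, a lipoxygenase of jasmonate synthesis, was higher by 1.27 (log2), and the jasmonate repressor JAZ1 was not called, with 926 and 722 in siliques, against 567 and 687 in ovules.

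Gibberellin and abscisic acid govern fruit growth and seed dormancy. Of 12 genes, 7 were higher and 3 lower, with a median of 0.32. AO4, the silique aldehyde oxidase given above, was higher by 3.52 on the log2 scale (SE 0.074, adjusted p = 1.2e-14 from limma). CYP88A3, known as KAO1, which makes a gibberellin precursor, had 1733 and 1621 in siliques, against 500.1 and 451 in ovules, and GA3OX1, which makes the active hormone, had 447 and 464, against 224 and 181. The gibberellin receptors GID1A and GID1B were lower: GID1A had 304 and 313 in siliques, against 1364 and 1368 in ovules, and GID1B had 97 and 76.7, against 288 and 408. GAI, a repressor that the receptors remove, had a log2 difference of -0.90, and the third receptor GID1C was not called, with 140.1 and 126, against 109 and 106. HAB1 and ABA3, of abscisic acid signalling and synthesis, were higher by 0.58 and 0.53 (log2).

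Auxin genes were higher for 5 of 10 and lower for 1, with a median of 0.28. GH3.3, which couples auxin to amino acids, had 1019 and 1256 in siliques, against 14.8 and 30.4 in ovules (log2 difference 3.68, SE 0.18). AXR3, the response repressor IAA17, had 2557 and 2754 in siliques, against 192 and 274 in ovules, and SHY2, the repressor IAA3, had 240.1 and 274, against 50.4 and 52.4. Both repressors were bright in leaves and seedlings as well. AFB3, an auxin receptor, had a log2 difference of -0.46, and YUC2 and YUC6, enzymes of auxin synthesis, were not called; YUC6 passed as lower without the first silique array (-0.35), and WES1 without the second ovule array (-0.49), so that 2 were lower in either case.

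Of 6 genes of the phloem and companion cells, 2 were higher and 4 lower, with a median of -0.73. The 4 carriers of sugar or amino acids among them split, with 2 higher and 2 lower. SUC2, the sucrose transporter of companion cells, had 3356 and 3455 in siliques, against 825 and 578 in ovules (log2 difference 2.19, SE 0.14). AAP8, an amino acid carrier of young seeds, had 150.2 and 124 in siliques, against 757 and 650.3 in ovules, at most 142 in the 4 other tissues. STP1, a hexose carrier that is not particular to phloem, had 1253 and 1366, against 4640.3 and 3387, and OPS, a protein of protophloem, had 37.7 and 43.4, against 229 and 183. SUT4 was higher by 0.32 (log2), and CVP2 (log2 difference -0.16) was below the level of detection and lost its call without the first silique (-0.13), second silique (-0.19) or second ovule array (-0.098).

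Most markers of pollen and of petals and stamens were below the level of detection in both sample types. Of 15 pollen genes, 14 were below the level of detection in both, 1 was higher and 2 were lower, and the summed intensity of the list was 1520 and 1515 in siliques, against 1190 and 1012 in ovules. The gene higher was AT5G45880, a LAT52-type pollen protein, with 587 and 657 in siliques, against 289 and 151 in ovules, and 7702 in flowers. MGH3, the sperm histone, had 41.9 and 47.9 in siliques, against 65.2 and 62.8 in ovules, and SYP125 85.2 and 62.8, against 106 and 91.5, all far below the level of detection, and neither was called without the first ovule array (-0.21 and -0.17), which leaves 0 lower. Of 5 genes of petals, stamens and stigma, 4 were below the level of detection in both and LAP6, an enzyme of the pollen wall, was lower, with 209 and 212 in siliques, against 515 and 479.7 in ovules.

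The brightest genes with an absolute difference under 0.1 differed in where else they were bright. HOG1, the adenosylhomocysteinase that keeps methylation reactions going, had 9296 and 9719.9 in siliques, against 9512 and 9514 in ovules, with a 95% interval of the log2 difference of -0.19 to 0.19. LCR69, a defensin, had 8431 and 8488 in siliques, against 9109.9 and 8794 in ovules (-0.28 to 0.12), but 242 in leaves. AT5G49180, a pectin methylesterase, had 8207 and 8389 in siliques, against 8469 and 8659 in ovules (-0.24 to 0.15), and was below the level of detection in leaves (72.4) and seedlings (69.7). AT1G78040 was at 7945 and 7782 in siliques, against 7883 and 8727 in ovules. LCR69 and AT5G49180 were bright in siliques and ovules and dimmer in leaves, flowers and pistils.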

How the data were processed

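The deposited values are linear model-based intensities of Affymetrix ATH1 arrays, which the authors computed with dChip over the 16 arrays of 8 sample types together after making detection calls in GCOS 1.4; replicates were not pooled. How RNA of siliques and ovules was labelled is not given in the sources used here. From these intensities, log2(intensity + 71.8) was computed, with the pseudocount set at the arrays' 20th percentile (their median). limma 3.58.1 (R 4.3.3, lmFit and eBayes with a trend) fitted 1 mean per sample type to the 16 arrays, with the contrast siliques minus ovules and p-values adjusted by Benjamini-Hochberg over 22746 probe sets. The p-values rest only on the spread between the 2 arrays of a type, pooled over the 8 sample types and moderated across probe sets. That spread has 8 residual degrees of freedom and 6.27 from the other probe sets. It is not that of the silique and ovule arrays alone, and the 2 arrays per type limit the precision.

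Of the probe sets, 15556 were assigned 1 gene from the platform annotation and the study's gene tables, 548 several and 6642 none; symbols are those of RefSeq. A gene was read from its probe set with the highest mean over the 4 arrays. DME had 3 probe sets with differences of -0.54, -0.35 and 0.064, and 2 of the probe sets of listed genes can cross-hybridize. The genes described are the 15 with the largest difference in each direction without overlap of arrays, the leading members of each list with some that were not called, and the 4 brightest with an absolute difference under 0.1. Members and lists were chosen with earlier results of these data known. The steps were tested on simulated data of this comparison with 22746 probe sets, where 50 of 50 probe sets changed by 2 and 48 of 50 changed by 1 (log2) were recovered in each direction. There, 7 unchanged probe sets were called as well. The changed probe sets were drawn from the brighter ones, so recovery of the dimmest was not tested. A difference between studies was not simulated. Alternatives were quantile and 75th percentile scaling, other pseudocounts, a filter on dim probe sets, other sample sets, a replicate block and leaving out each array. Promoters and other sequences were not analysed here.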

Additional observations from a re-analysis of the deposited data

How the results depend on the processing

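The counts of probe sets higher and lower in siliques stayed within 1.5 times of 6095 and 6288 under all 12 alternatives and one added after seeing the data, which fitted only the 12 arrays of the 6 tissues. The pseudocount moved the 2-fold counts: 4 times the pseudocount gave 1348 higher and 580 lower, and a pseudocount of 1 gave 1606 lower, by its construction. The median difference was -0.0538 after quantile normalization and -0.0493 without dim probe sets. Leaving out 1 array gave 5222 to 5804 higher, 5249 to 5736 lower, 2061 to 2066 at least 2-fold higher, 1075 to 1117 at least 2-fold lower and a median of -0.039 to 0.030. Of 262 genes followed, none changed direction while called; 242 kept their call under quantile normalization, 258 with the replicate block and 239 to 244 without 1 array. Of the 24 gene lists, the number of genes higher moved by over 1.5 times in 4 under either rescaling and in 10 without dim probe sets, which drops listed genes by its construction, and the number lower in 0 and 4. The list median moved beyond the replicate spread in 14 under quantile normalization, 9 under 75th percentile scaling, 15 without dim probe sets, and 14 and 17 with the smaller and larger pseudocount. The deviations of same-numbered silique and ovule arrays had a correlation of 0.096. With 2 arrays per type this value cannot show whether the numbers pair the arrays, and the 2 types come from different studies. With the replicate block 6032 were higher, 6185 lower, 2060 at least 2-fold higher and 1069 at least 2-fold lower. The cause of these changes was not tested. Intensities near the background limit what can be said of dim genes: 10258 probe sets were left out by the filter on dim values.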

Other observations

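Families that share a name in the annotation, drawn up after their values were seen, add some groups. Of 51 UDP-glycosyltransferases, which attach sugars to small molecules, 30 were higher and 2 lower in siliques, with UGT84A3 at 1500.0 and 1572 in siliques, against 138 and 129 in ovules. Of 19 glutathione transferases, which detoxify reactive compounds, 12 were higher and 0 lower, with GSTF6 at 4204 and 4474 in siliques, against 335 and 379.8 in ovules. Of 10 CBL-interacting protein kinases, which relay calcium signals, 6 were higher and 0 lower, led by CIPK12 with a log2 difference of 1.97.

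Some families had more members lower than higher. Of 14 autophagy genes, 2 were higher and 7 lower, with ATG8E at 195 and 201 in siliques, against 686 and 509 in ovules, and ATG8H, of the same subfamily, at 567 and 606 in siliques, against 149.6 and 138 in ovules. Of 19 ubiquitin-specific proteases, 2 were higher and 9 lower. Of 8 chromatin remodelling ATPases, 1 was higher and 5 lower, led by CHR34 (-1.21). Of 11 RALF-like signalling peptides, 2 were higher and 4 lower, but their median log2 difference of -0.0078 was close to that of all probe sets. Among them RALFL28 was at 86.9 and 82.2 in siliques, against 1492 and 1578 in ovules. Other families were more even, with 7 of 41 MADS-box factors higher and 6 lower. Of 29 serine carboxypeptidase-like proteins, 9 were higher and 9 lower.

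The glycosyl hydrolases of family 9, which act on cellulose, went both ways, with 8 of 15 higher and 2 lower. GH9C1 was at 1924 and 1754 in siliques, against 50.5 and 49.1 in ovules, while GH9B13 was at 249 and 242 in siliques, against 3445 and 3276 in ovules. The counts of all these families are to be read against 26.8% higher and 27.6% lower of all probe sets.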
